A study of Mus musculus with 14 samples.

Results

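Cultures treated for 1 h with NMP peptides plus APV were compared with cultures treated with DMSO. Libraries were taken by label, 3 of NMP peptides with APV and 2 of DMSO, which made 5 of the 14 in the series. All libraries came from primary cortical neuron cultures of wild-type (WT) C57BL/6 mice at day 12 in vitro. NMP peptides are products of the neuronal membrane proteasome (NMP), a proteasome complex at the plasma membrane of neurons, and here they were added at 4% by volume together with 100 µM APV. The 3 libraries each of 3 further groups, NMP peptides alone at 4%, proteinase K-cleaved (PK-cleaved) NMP peptides at 4% and 20 µM bicuculline, are used only to place the values. The DMSO cultures received 1% DMSO, a content the labels give for no other group, so the treatment and the solvent cannot be told apart in this comparison. No group with APV and without peptides was analysed here, so the effects of APV and of peptides that act in its presence cannot be told apart either.

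NMDA receptors are glutamate-gated cation channels that let calcium into the neuron when glutamate binds while the membrane is depolarised. That calcium drives kinase and transcription factor signalling to the nucleus, where it switches on activity-regulated genes such as Npas4, Bdnf and Fos. APV is a competitive antagonist at the glutamate site of the receptor, and it is routinely used to block this signal in cultured cortical neurons.

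RNA was sequenced after removal of ribosomal RNA, and each value is a quantile-normalised log signal of a gene in a library, with the log base taken as 2. The depth behind the values is unknown, and quantile normalisation hides any change in total RNA. Each library held values for 15824 to 16231 features, of which 10877 genes entered the test. All 14 excitatory and all 14 inhibitory neuron markers passed the filter on low values, and so did all 15 astrocyte markers. All 9 proliferating progenitor markers and 10 of 14 oligodendrocyte lineage markers passed as well. The cultures therefore carried neuronal, astrocyte, oligodendrocyte lineage and progenitor marker transcripts. Of the microglia, endothelial or mural, and fibroblast lists only 1, 1 and 2 genes passed, and the others were dropped for low or missing values.

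With NMP peptides plus APV 19 genes rose and 49 fell relative to DMSO. A gene was called at an adjusted p under 0.05 in limma's moderated test with Benjamini-Hochberg adjustment over all tested genes. The 68 called genes were 0.625% of the genes tested, 0.175% for the higher and 0.45% for the lower ones, and 1252 genes (11.5%) had an unadjusted p under 0.05. Over all genes the libraries of the groups did not overlap for 29.8%, with 8.86% above and 21.0% below DMSO, and the median log2 fold change was -0.05, with 3948 of 10877 genes above 0. The lower genes fell between 1.3-fold and 4.84-fold, with a median of 1.54-fold and 8 genes over 2-fold. These 8 lay low in the signal range. Among them Nppc, Cav1, Has3 and Avpr1a had NMP peptides plus APV means of -0.10, -0.05, -0.29 and -0.01, where each library has a median of 2.19. All 8 were removed when the lowest 60% of features were dropped, so that setting does not test them. The higher genes rose between 1.26-fold and 2.63-fold, with a median of 1.44-fold and 2 genes over 2-fold. With each library centred on its median the split was 28 higher and 42 lower.

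The number of calls rested on few libraries. It was 23 without DMSO replicate 2 and 7 without DMSO replicate 3, fits that keep a single DMSO library and assume that it varies like the others. It was 31, 26 and 51 without NMP peptides plus APV replicate 1, 2 and 3. Of the 68 genes, 5 kept their call in each of these removals, namely Nppc, Cav1, Opn3, Slc44a5 and Elk1, and none of the 68 changed sign in any setting tried. Fitting only the compared groups left 5 calls, of which 4 were among the 68, namely Nppc, Opn3, Slc44a5 and Elk1. Cav1 was not called in that limma fit (adjusted p = 0.0576).

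**Figure D1:**
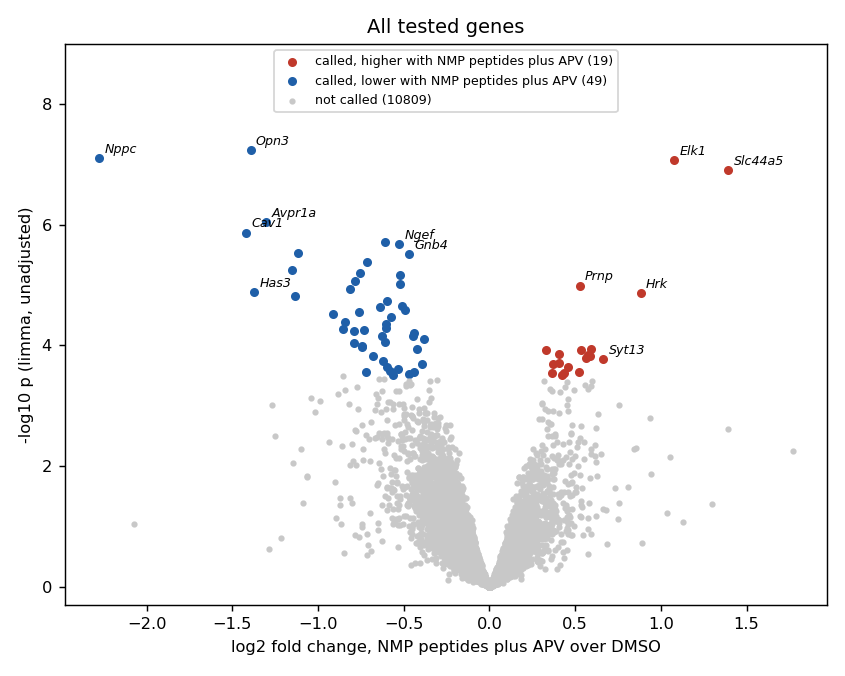
Log2 fold change of NMP peptides plus APV over DMSO (x axis) against the unadjusted limma p on a -log10 scale (y axis), 1 point a gene over 10877 genes. The 19 genes called higher are red and the 49 called lower are blue, and Nppc, Opn3, Elk1 and Slc44a5 stand at the top.

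The called genes were also placed against the 9 libraries that were in neither group. For 48 of the 49 lower genes the 3 NMP peptides plus APV libraries lay below all 11 other libraries, and for 18 of the 19 higher genes they lay above all 11. The exceptions were Hs3st5, which encodes a heparan sulfate sulfotransferase, and Ppp1r10, a nuclear targeting subunit of protein phosphatase 1. Over all tested genes this held for 4.55% below and 3.45% above. The called genes were chosen with the same NMP peptides plus APV libraries, and with a spread taken over all 14 libraries. The calls also largely fix the order against the 2 DMSO libraries. These counts are therefore no separate support for the calls, and the shares over all genes are no matched baseline.

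The largest fall was that of Nppc (chromosome 1, 86666293 to 86670573, GRCm38), the gene of C-type natriuretic peptide, a secreted peptide that signals through cyclic GMP. Nppc had log2 signals of 0.11, -0.35 and -0.05 in the NMP peptides plus APV libraries, against 2.22 and 2.14 in the DMSO libraries. No other library was below 1.79, so the APV libraries stood apart from the whole series. Nppc was 4.84-fold lower (limma log2 fold change -2.28 with an SE of 0.22, adjusted p = 0.000309). Its log2 fold change was -2.11 against NMP peptides and -2.13 against PK-cleaved NMP peptides, comparisons that use the same APV libraries. In bicuculline against PK-cleaved NMP peptides, which shares no library with the main comparison, Nppc was higher by 1.01 on the log2 scale (limma adjusted p = 0.0345).

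Around Nppc, genes of cyclic GMP signalling were followed as a family chosen after the values were known. Gucy1b3, the beta subunit of the nitric oxide receptor guanylyl cyclase, fell by 0.49 on the log2 scale (SE 0.08, limma adjusted p = 0.0111). Its partner subunit Gucy1a3 had a log2 fold change of -0.39 and was not called (adjusted p = 0.207). Npr2, the receptor of C-type natriuretic peptide, had -0.06, and Npr3, its clearance receptor, had 0.29, neither called. The Gucy1b3 call was lost without DMSO replicate 3 (adjusted p = 0.206) and without NMP peptides plus APV replicate 1 (adjusted p = 0.0556).

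Receptor genes were among the lower genes. Of 23 tested G protein-coupled receptor genes of peptides and amines, 4 fell and 0 rose, against 0.45% and 0.175% of all genes. In this list 15 genes lay below 0 and 8 above, near the split over all genes, where 3948 of 10877 lay above 0. At an unadjusted limma p under 0.05, 7 were lower and 3 higher. The list median was -0.10 against -0.05 over all genes. Opn3 (chromosome 1, 175662421 to 175692901), an opsin expressed outside the eye as well, had log2 signals of 0.22, 0.46 and 0.04 in the APV libraries, against 1.62 and 1.65 with DMSO. Its APV libraries did not overlap with any of the other 11, whose lowest value was 1.32, and it was 2.63-fold lower (limma log2 fold change -1.39 with an SE of 0.13, adjusted p = 0.000309). Opn3 shares 461 exon bases, 24.1% of its exon length, with the neighbouring gene Chml on the same strand, and reads there cannot be assigned to either. Chml had a log2 fold change of -0.66 (adjusted p = 0.072).

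Avpr1a (chromosome 10, 122448499 to 122453453) encodes a vasopressin receptor that couples to phospholipase C. It had -0.05, 0.12 and -0.11 in the APV libraries, against 1.13 and 1.45 with DMSO. The groups were well apart and the lowest of all other libraries was 0.94. Avpr1a fell by 1.30 on the log2 scale (SE 0.16, limma adjusted p = 0.00195), while the related oxytocin receptor gene Oxtr had 0.00 (adjusted p = 0.999). Without DMSO replicate 3 the Avpr1a adjusted p was 0.055.

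The neuropeptide Y receptor gene Npy1r had 1.68, 1.74 and 2.01 with NMP peptides plus APV and 2.45 and 2.69 with DMSO (limma log2 fold change -0.76 with an SE of 0.13, adjusted p = 0.0115). Crhr1, a receptor of corticotropin-releasing hormone, had 0.04, 0.14 and 0.25 in the APV libraries, against 0.83 and 0.94 with DMSO (log2 fold change -0.74 with an SE of 0.14, adjusted p = 0.0267). Both were lower in every APV library than in either DMSO library. Npy1r kept its call in 2 of the 5 single-library removals and Crhr1 in 1, with adjusted p-values of up to 0.206 and 0.243. Gpr139 had the highest value of the list, 1.39 (SE 0.38), with 2.08, 1.85 and 1.74 in the APV libraries against 0.33 and 0.66 with DMSO, and was not called (adjusted p = 0.142), although it was 1 of the 5 calls when only the compared groups were fitted (limma adjusted p = 0.027). Its log2 fold changes against NMP peptides and PK-cleaved NMP peptides were 2.02 and 1.69, with adjusted p-values of 0.00884 and 0.0248.

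Among glutamate receptor genes, the metabotropic receptor gene Grm2, a presynaptic Gi-coupled receptor, was the member that fell. It had 1.38, 1.66 and 1.50 in the APV libraries and 2.22 and 2.43 with DMSO, below all other libraries (limma log2 fold change -0.81 with an SE of 0.12, adjusted p = 0.00697). Grm8, a further metabotropic gene, had -0.37 and was not called. The Grm2 call was lost without DMSO replicate 3 (adjusted p = 0.164). Of 15 NMDA receptor subunit and scaffold genes 0 were called, with a list median of 0.03 and 1 gene at an unadjusted p under 0.05. That gene was Grin2b, a glutamate-binding subunit of the receptor that APV blocks, at 5.01, 5.65 and 4.68 in the APV libraries, against 3.83 and 4.30 with DMSO (log2 fold change 1.05 with an SE of 0.33, adjusted p = 0.231). The 14 AMPA and kainate receptor genes and the 13 GABA-A receptor and gephyrin genes also had 0 limma calls, with medians of -0.01 and 0.00 and with 1 and 4 genes at an unadjusted p under 0.05.

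**Figure D2:**
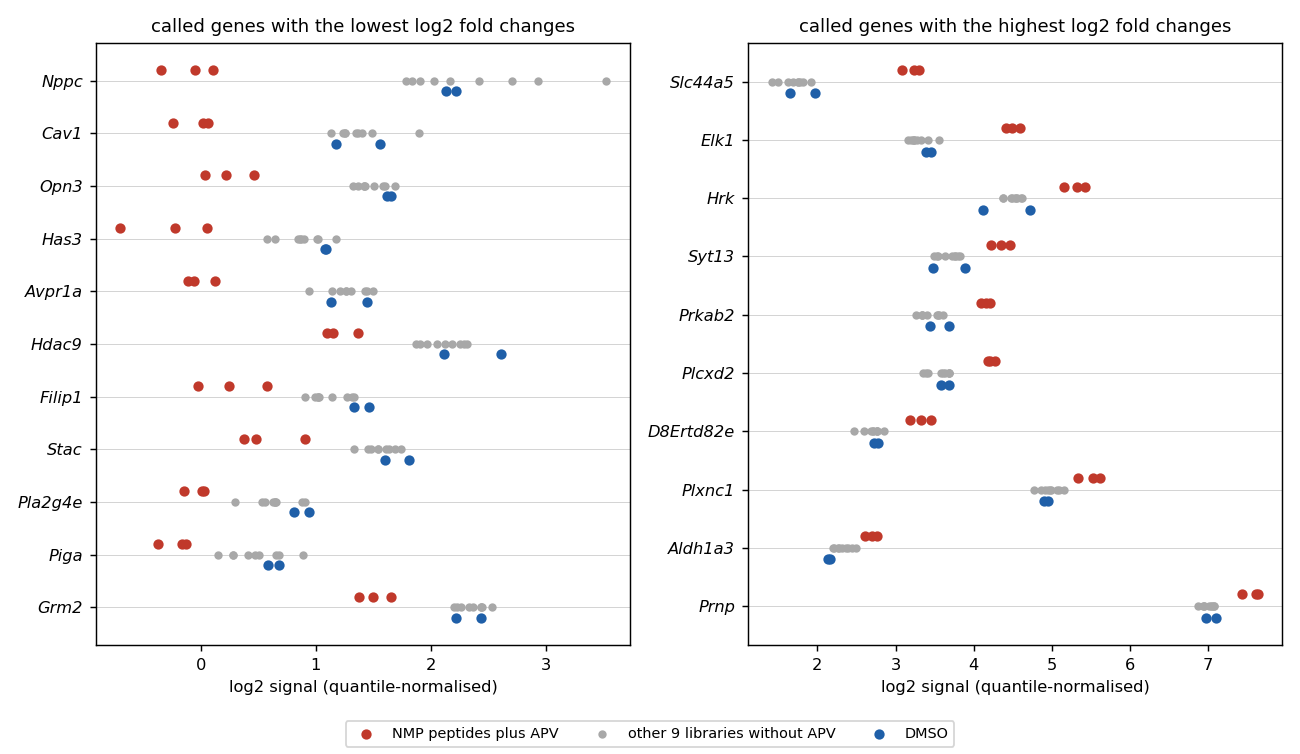
Log2 signals per library (x axis) of 11 called genes among those with the lowest and the 10 with the highest log2 fold change (rows), with NMP peptides plus APV in red, the other 9 libraries in grey and DMSO in blue. In each of the 21 genes the red points lie apart from all grey and blue points, closest for Aldh1a3 and Plxnc1 among the higher genes.

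Potassium channel genes were among the lower ones. Of 35 tested, 2 fell and 0 rose, against 0.45% and 0.175% of all genes. In the list 27 lay below 0 and 8 above, while 3948 of 10877 genes lay above 0 over all genes. The list median was -0.16 against -0.05 over all genes. The members that fell were Kcnv1 (log2 fold change -0.79, SE 0.12) and Kcng1 (-0.72, SE 0.10), which encode electrically silent subunits that modify Kv2 channels. Kcnv1 had 0.97, 0.97 and 1.09 in the APV libraries, against 1.67 and 1.92 with DMSO, and Kcng1 had 2.23, 2.19 and 2.08 in the APV libraries, against 2.86 and 2.91 with DMSO. Kcnf1, a further silent subunit, had -0.57 and was not called (adjusted p = 0.169). Without DMSO replicate 3 the adjusted p-values of Kcnv1 and Kcng1 were 0.16 and 0.0854.

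Kcnq3 and Kcnq5, subunit genes of the neuronal M-current, had -0.43 and -0.33 and were not called. The 23 voltage-gated sodium and calcium channel genes had 0 limma calls, 2 genes at an unadjusted p under 0.05 and a median of 0.06. Stac, an adaptor that binds L-type calcium channels, had 0.48, 0.38 and 0.91 with NMP peptides plus APV and 1.82 and 1.60 with DMSO, and fell by 1.12 on the log2 scale (SE 0.15, limma adjusted p = 0.00336). The L-type channel genes Cacna1c and Cacna1d had 0.24 and 0.19, not called. Without DMSO replicate 2 the adjusted p of Stac was 0.0532.

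Adcy8, an adenylyl cyclase stimulated by calcium and calmodulin, had 2.05, 1.76 and 2.04 in the APV libraries and 2.73 and 2.69 with DMSO (limma log2 fold change -0.76 with an SE of 0.11, adjusted p = 0.00524). The other 6 adenylyl cyclase genes tested lay between -0.16 and 0.21, and Adcy1, which calcium stimulates as well, had 0.21 (adjusted p = 0.742). Pla2g4e, a member of the cytosolic phospholipase family, had 0.03, -0.14 and 0.01 in the APV libraries, against 0.81 and 0.95 with DMSO (log2 fold change -0.91 with an SE of 0.15, adjusted p = 0.0119). Both enzymes were lower in the APV libraries than in all 11 others. The Adcy8 adjusted p was 0.0541 without DMSO replicate 2 and 0.0792 without DMSO replicate 3, and that of Pla2g4e was 0.0681, 0.201 and 0.0657 without DMSO replicate 2, DMSO replicate 3 and NMP peptides plus APV replicate 2.

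Gnb4, a G protein beta subunit, had 3.47 in each APV library to 2 decimals and 3.94 in both DMSO libraries (limma log2 fold change -0.47 with an SE of 0.06, adjusted p = 0.00336). Ngef, an exchange factor that activates RhoA below Eph receptors, fell by 0.53 (SE 0.07, adjusted p = 0.00283), and Ephb6, an Eph receptor without kinase activity, fell by 0.39. Elmo1, which activates Rac together with DOCK proteins, fell by 0.73, and Dok5, a docking protein of receptor tyrosine kinases, by 0.47. Gnb4 and Ngef kept their calls in 4 of the 5 single-library removals, and their adjusted p-values without DMSO replicate 3 were 0.0701 and 0.0799. Elmo1 and Ephb6 kept theirs in 1 and Dok5 in 0.

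Hdac9 and Hdac5 encode class IIa histone deacetylases, which repress MEF2 target genes and leave the nucleus when calcium signalling phosphorylates them. Hdac9 (chromosome 12, 34047580 to 34917095) had 1.15, 1.10 and 1.37 with NMP peptides plus APV and 2.12 and 2.61 with DMSO, and no other library was below 1.87. It fell by 1.15 on the log2 scale (SE 0.16, limma adjusted p = 0.00511). Hdac5 had 4.01, 4.03 and 4.03 in the APV libraries, against 4.47 and 4.43 with DMSO (log2 fold change -0.43 with an SE of 0.08, adjusted p = 0.0284). The other class IIa genes had 0.12 (Hdac4) and -0.03 (Hdac7), and the MEF2 factor genes tested had between -0.01 (Mef2a) and 0.33 (Mef2c), none called. Hdac9 lost its call without DMSO replicate 3 (adjusted p = 0.133), and Hdac5 in each of the 5 single-library removals, with an adjusted p of up to 0.227.

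Nab1, a corepressor that binds EGR transcription factors, fell by 0.61 on the log2 scale (SE 0.11, limma adjusted p = 0.0244), while Nab2 had -0.36 (adjusted p = 0.447). Smyd2, a lysine methyltransferase gene that shares 29.96% of its exon length with an antisense gene, fell by 0.52. In the other direction, Elk1 (chromosome X, 20933395 to 20950608) rose 2.11-fold. Elk1 is an ETS-family factor that binds with SRF at serum response elements and is activated by MAP kinases. Its log2 signals were 4.48, 4.42 and 4.59 in the APV libraries and 3.45 and 3.39 with DMSO, and the highest of all other libraries was 3.55 (limma log2 fold change 1.08 with an SE of 0.11, adjusted p = 0.000309). Of 13 tested SRF and ETS factor genes Elk1 was the member that rose and 0 fell, while 0.175% of all genes rose and 0.45% fell. Elk3, Elk4 and Srf had -0.23, 0.21 and -0.19, not called. Nab1 kept its call in 1 of the 5 single-library removals and Smyd2 in 4.

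Cav1 (chromosome 6, 17306335 to 17341328) encodes caveolin 1, the coat protein of caveolae. It had -0.24, 0.02 and 0.06 in the APV libraries, against 1.56 and 1.18 with DMSO, and the lowest of all other libraries was 1.14. Cav1 fell by 1.42 on the log2 scale (SE 0.18, limma adjusted p = 0.00244), while Cav2, its neighbour and binding partner, had -0.05 (adjusted p = 0.927). Met, the receptor of hepatocyte growth factor and also on chromosome 6, fell by 0.58 (SE 0.12, adjusted p = 0.0477). Cav1 and Met lie 122021 bases apart and were the only pair of called genes within 500 kb of each other. Met kept its call in 1 of the 5 single-library removals. The adjusted p of Cav1 was 0.0512 when the 4 libraries highest in the astrocyte gene Gfap were dropped.

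Has3 (chromosome 8, 106870242 to 106882902) encodes a hyaluronan synthase, and it had -0.22, -0.70 and 0.06 with NMP peptides plus APV, against 1.08 and 1.09 with DMSO. It fell by 1.37 on the log2 scale (SE 0.21, limma adjusted p = 0.00736). The other hyaluronan synthase genes did not pass the filter. Has3 shares 352 exon bases with Chtf8 on the other strand, where reads cannot be assigned without strand, and Chtf8 had 0.06. Its call was lost without DMSO replicate 2 (adjusted p = 0.0681) and without DMSO replicate 3 (adjusted p = 0.131). Chst8, a sulfotransferase that acts on glycoprotein sugars, fell by 0.64, Hs3st5 by 0.62 and Prss12, the secreted protease neurotrypsin that cleaves agrin, by 0.60. These kept their calls in 2, 1 and 1 of the 5 removals.

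Filip1, which binds filamin A and controls its breakdown in migrating neurons, had 0.24, -0.02 and 0.57 in the APV libraries, against 1.33 and 1.46 with DMSO (limma log2 fold change -1.13 with an SE of 0.18, adjusted p = 0.00783). Its APV libraries lay below all others, the lowest of which was 0.91. Pls3, an actin-bundling protein gene, fell by 0.44 and Hip1r, an adaptor of clathrin and actin, by 0.44. Cadps2, a priming factor of dense-core vesicles, fell by 0.75 (SE 0.14, adjusted p = 0.0271), while Cadps had -0.21. Piga, the gene of an enzyme that starts GPI anchor synthesis, had -0.13, -0.37 and -0.16 in the APV libraries, against 0.58 and 0.68 with DMSO (log2 fold change -0.85 with an SE of 0.15, adjusted p = 0.0182). Filip1 lost its call without DMSO replicate 2 or 3 (adjusted p = 0.0532 and 0.16), and Piga also without NMP peptides plus APV replicate 2 (adjusted p = 0.0939, 0.206 and 0.0802). Pls3 and Cadps2 kept theirs in 1 of the 5 removals and Hip1r in 0.

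The remaining lower genes given here fell by 0.38 to 0.79 on the log2 scale. They were Klhl4, Tm6sf1, the kinase gene Hunk, Pmepa1, an inhibitor of TGF-beta signalling, the co-chaperone gene Sgtb, the sorting nexin gene Snx7, Tmem200a, Ccdc184, Osbpl10, Ccnyl1, Mad2l1bp, Nudt4, the ubiquitin ligase gene Rnf19b, Lbh and Lonrf1. Sgtb had the smallest p among these (limma log2 fold change -0.61 with an SE of 0.08, adjusted p = 0.00283). Ccnyl1, at an adjusted p of 0.0495, was the called gene nearest the threshold, and Arhgdib, at -0.86 and an adjusted p of 0.0512, was the first gene outside it. Sgtb kept its call in 4 of the 5 single-library removals, Ccdc184, Osbpl10, Nudt4 and Rnf19b in 3, Klhl4 and Snx7 in 2, Pmepa1, Ccnyl1 and Lbh in 1 and Tm6sf1, Hunk, Tmem200a, Mad2l1bp and Lonrf1 in 0.

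The gene that rose most was Slc44a5 (chromosome 3, 153973436 to 154271747), a member of the choline transporter-like family. It had 3.30, 3.08 and 3.24 with NMP peptides plus APV and 1.97 and 1.65 with DMSO, and no other library was above 1.97. Slc44a5 was 2.63-fold higher (limma log2 fold change 1.39 with an SE of 0.14, adjusted p = 0.00034), while Slc44a1 and Slc44a2 had -0.11 and 0.12, not called. Its log2 fold changes against NMP peptides and PK-cleaved NMP peptides were 1.48 and 1.47, and those of Elk1 were 1.25 and 1.17. These comparisons share the APV libraries with the main comparison.

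Hrk (chromosome 5, 118169764 to 118189478) encodes a BH3-only protein of the Bcl2 family that promotes apoptosis in neurons. It had 5.32, 5.43 and 5.16 in the APV libraries and 4.72 and 4.12 with DMSO, above all 11 other libraries (limma log2 fold change 0.88 with an SE of 0.14, adjusted p = 0.00736). Of 16 tested Bcl2 family and apoptosome genes 1 rose and 0 fell, against 0.175% and 0.45% of all genes, with a median of 0.04. Pmaip1, a further BH3-only gene, had 0.54 (adjusted p = 0.345). Without DMSO replicate 3 the log2 fold change of Hrk was 0.58 and its call was lost (adjusted p = 0.113).

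Prnp (chromosome 2, 131909928 to 131938436), the prion protein gene, had 7.62, 7.43 and 7.64 in the APV libraries, against 7.10 and 6.97 with DMSO, and the highest of all other libraries was 7.10. It rose by 0.53 on the log2 scale (SE 0.08, limma adjusted p = 0.00653), and its relative Sprn had 0.02. Without DMSO replicate 3 its adjusted p was 0.16. Syt13, a synaptotagmin gene, had 4.35, 4.23 and 4.46 in the APV libraries, against 3.48 and 3.88 with DMSO (log2 fold change 0.66 with an SE of 0.13, adjusted p = 0.0354), and it was the only called gene of 14 synaptotagmins. Prkab2, a regulatory subunit of the energy sensor AMPK, had 4.21, 4.16 and 4.09 in the APV libraries, against 3.68 and 3.44 with DMSO (log2 fold change 0.59 with an SE of 0.11, adjusted p = 0.0284). The other 5 AMPK subunit genes tested lay between -0.23 and 0.13.

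Plxnc1, the receptor of semaphorin 7A, had 5.62, 5.34 and 5.52 with NMP peptides plus APV and 4.91 and 4.95 with DMSO, and rose by 0.56. Aldh1a3, which makes retinoic acid, had 2.76, 2.60 and 2.70 in the APV libraries, against 2.16 and 2.14 with DMSO, and rose by 0.53. Plcxd2 and D8Ertd82e rose by 0.59 and 0.57. The others rose by 0.33 to 0.52: Lmln, a metallopeptidase gene, Rspo2, which strengthens Wnt signalling, Mta3, a NuRD complex subunit, the adhesion protein gene Flrt3, Trove2, which binds misfolded small RNAs, Nipal3, Ppp1r10, Pdk2, a kinase that inhibits pyruvate dehydrogenase, and Lrpap1, a chaperone of LDL receptor-related proteins. Prnp kept its call in 4 of the 5 single-library removals, Plxnc1, D8Ertd82e and Nipal3 in 1, and Syt13, Prkab2, Aldh1a3, Plcxd2 and the other 8 in 0.

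Activity-regulated genes were then examined, since APV blocks a main source of calcium for them. Of 22 tested immediate-early transcription factor genes 0 were called against DMSO by limma, with a median of 0.06, 12 above 0, and 8 at an unadjusted p under 0.05, 3 higher and 5 lower. Of 26 activity-regulated effector genes Nppc fell and Ppp1r10 rose, with a median of -0.20 and 18 below 0. Over all genes 0.45% fell, 0.175% rose and 3948 of 10877 lay above 0, with a median of -0.05. Of 13 MAP kinase feedback regulators 0 were called by limma, 1 had an unadjusted p under 0.05, and the median was -0.09.

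Within the immediate-early list the members lay on both sides of DMSO. Npas4, a neuron-specific factor induced by calcium entry, had -0.07, 0.11 and 0.08 in the APV libraries, against 0.81 and 1.81 with DMSO, and its lowest value in all other libraries was 0.77. It was not called (limma log2 fold change -1.27 with an SE of 0.31, adjusted p = 0.0916). Dropping the 4 libraries highest in Gfap leaves DMSO replicate 3, the higher of the DMSO values, as the only DMSO library. The log2 fold change of Npas4 was then -1.77. Egr1 had 5.94, 5.92 and 5.67 in the APV libraries, against 4.75 and 5.48 with DMSO, which puts every APV library above both DMSO libraries (log2 fold change 0.73 with an SE of 0.29, adjusted p = 0.345). Junb likewise had 4.96, 4.75 and 4.54 in the APV libraries, against 3.81 and 4.44 with DMSO (log2 fold change 0.62 with an SE of 0.32, adjusted p = 0.469).

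Fos had 4.88, 5.01 and 4.46 with NMP peptides plus APV and 4.03 and 4.61 with DMSO, and the groups overlapped. Arc had 2.43, 2.94 and 2.07 with NMP peptides plus APV and 1.74 and 2.63 with DMSO, and Nr4a1 had 3.40, 3.76 and 3.28 with NMP peptides plus APV and 2.56 and 3.56 with DMSO. Both overlapped as well, and had log2 fold changes below 0 once DMSO replicate 2 was left out, of -0.15 and -0.08. Bdnf, the gene of a neurotrophin, had -0.01, 0.31 and 0.02 in the APV libraries, against 0.93 and 1.42 with DMSO, below all 11 other libraries, and was not called (limma log2 fold change -1.07 with an SE of 0.38, adjusted p = 0.305). Vgf, a secreted neuropeptide precursor gene, had 3.55, 3.60 and 3.18 in the APV libraries, against 4.38 and 5.01 with DMSO (log2 fold change -1.25 with an SE of 0.35, adjusted p = 0.164). Without the 4 libraries highest in Gfap, a fit that keeps DMSO replicate 3 as the only DMSO library, the log2 fold change of Vgf was -1.57. The SEs of these genes, from 0.28 for Fos to 0.38 for Bdnf, were above the median SE over all genes, 0.115.

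**Figure D3:**
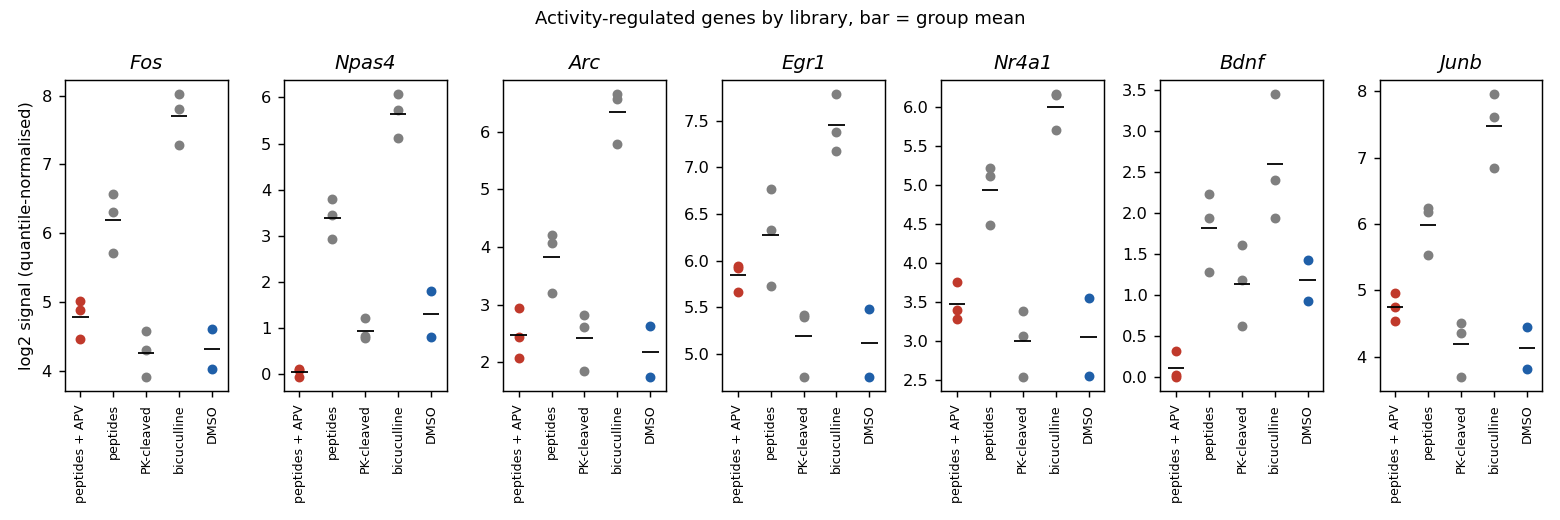
Log2 signals (y axis, a scale of its own in each panel) of 7 activity-regulated genes in every library, with NMP peptides plus APV in red, the 3 other treatments in grey, DMSO in blue and a bar at each group mean. Npas4 and Bdnf lie lowest in NMP peptides plus APV, while the red points of Fos, Arc and Nr4a1 overlap those of DMSO.

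NMP peptides plus APV were also compared with NMP peptides alone, which shows what differed when APV was present in peptide-treated cultures. In this comparison 156 genes (1.43%) were called, 60 higher (0.552%) and 96 lower (0.883%). Of the 22 immediate-early factor genes 11 were lower and 0 higher, with a median of -0.98 against -0.01 over all genes, and of the 26 effectors 10 were lower. Npas4 was 3.45, 3.80 and 2.93 in the NMP peptides libraries, and its log2 fold change with APV was -3.35 (SE 0.27, limma adjusted p = 3.75e-05). Against PK-cleaved NMP peptides 151 genes (1.39%) were called, 66 higher (0.607%) and 85 lower (0.781%), and of the same 22 factors 1 was lower, Nfil3 (log2 fold change -0.60, adjusted p = 0.0181). The counts moved to between 57 and 101 against NMP peptides and between 53 and 127 against PK-cleaved NMP peptides when a single library was left out.

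Bicuculline, which blocks GABA-A receptors and so raises network activity, was compared with PK-cleaved NMP peptides because this pair shares no library with the main comparison. Bicuculline raised 58 genes (0.533%), among them 18 of the 22 immediate-early factors. By limma it lowered 0 genes, with 102 lower at an unadjusted p under 0.05 and 2 called lower with array weights. Of the 49 genes that fell with NMP peptides plus APV against DMSO, 27 were higher than 0 with bicuculline and 22 under it, their median was 0.02 against 0.01 over all genes, and 1 was called, Nppc. Of the 19 genes that rose, 9 were above 0, the median was -0.01 and 0 were called.

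Further lists gave few calls. Of 20 integrated stress and unfolded protein response genes limma called 0, 4 had an unadjusted p under 0.05, 18 lay below 0 and the median was -0.31 against -0.05 over all genes. Chac1, a glutathione-degrading enzyme gene induced by that response, had 3.06, 3.54 and 2.11 in the APV libraries, against 4.65 and 3.28 with DMSO, so the groups overlapped (limma log2 fold change -1.06 with an SE of 0.38, adjusted p = 0.304). The 31 proteasome subunit genes had 0 calls, 4 at an unadjusted p under 0.05, 29 below 0 and a median of -0.08, with Psmd2 lowest at -0.17. Of 20 sterol synthesis genes 0 were called, 3 had an unadjusted p under 0.05, 19 lay below 0 and the median was -0.15. Of 16 clock genes 0 were called and 5 had an unadjusted p under 0.05, and Tef, a PAR bZIP factor gene, had 5.07, 5.02 and 5.14 in the APV libraries, against 4.33 and 4.72 with DMSO (log2 fold change 0.55 with an SE of 0.12, adjusted p = 0.06). Tef was called with array weights (limma adjusted p = 0.0386).

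**Figure D4:**
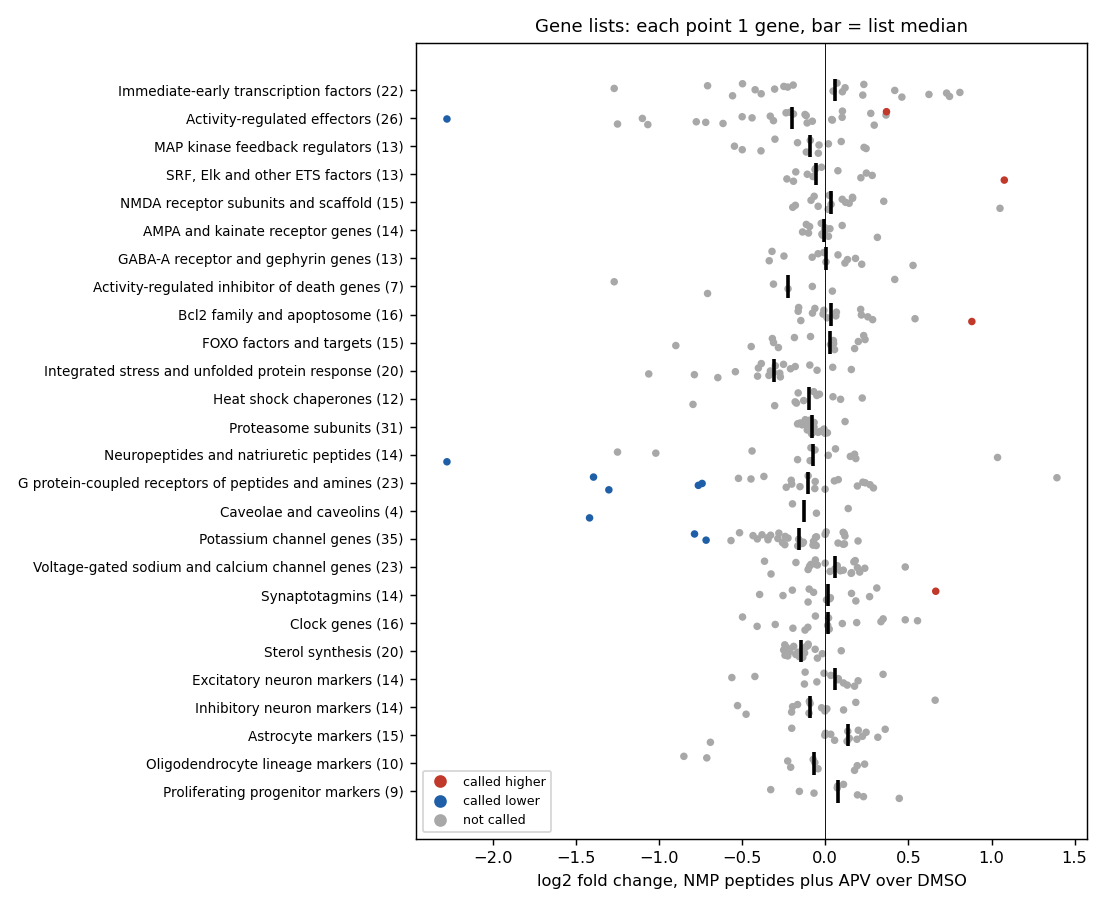
Log2 fold changes of NMP peptides plus APV over DMSO (x axis) for each tested gene of 26 lists (rows, number of tested genes in brackets), with a bar at each list median. Called genes are red where higher and blue where lower; 4 receptor genes, 2 potassium channel genes, Nppc and Cav1 are blue, and Elk1, Hrk, Syt13 and Ppp1r10 are red.

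Of the 8 cell type marker lists, the summed levels of 2, astrocytes and inhibitory neurons, lay outside those of all other libraries in NMP peptides plus APV, and those of the other 6 overlapped with DMSO. Of 15 astrocyte markers limma called 0, while 12 lay above 0, 4 were higher at an unadjusted p under 0.05 and the median was 0.14. Their summed linear level was 884.7 to 926.5 with NMP peptides plus APV, 755.9 to 870.7 in the other treated libraries and 782.9 to 827.4 with DMSO, so the APV libraries were above all others. The 14 inhibitory neuron markers, 0 of them called and with a median of -0.09, summed to 667.1 to 690.5 with NMP peptides plus APV, 698.7 to 788.2 in the other treated libraries and 718.4 to 731.3 with DMSO, so the APV libraries were below all others. The 14 excitatory neuron markers summed to 402.0 to 435.9 with NMP peptides plus APV and 426.5 to 435.2 with DMSO. Fewer cells of a type and less RNA per cell cannot be told apart in bulk samples, and the part of these levels in the called genes was not tested. Gfap, an astrocyte filament gene, was 2.61, 2.76 and 2.77 in the APV libraries and 4.13 and 2.68 in DMSO replicates 2 and 3. When the 4 libraries highest in Gfap, DMSO replicate 2 among them, were dropped, 16 genes were called, 4 higher and 12 lower.

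**Figure D5:**
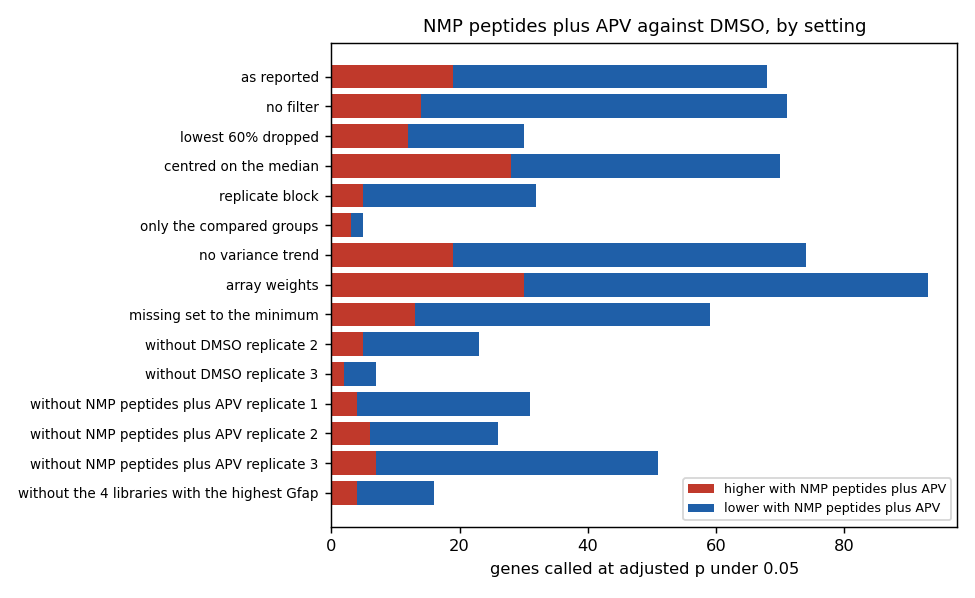
Number of genes called in NMP peptides plus APV against DMSO (x axis) as reported and under each other setting (rows), with higher genes in red and lower genes in blue. The count was 68 as reported, 5 with only the compared groups, 7 without DMSO replicate 3 and 93 with array weights.

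Start-site sequences of the called genes were read from RefSeq windows of 300 bases around annotated starts (GRCm38.p6). A sequence was found for 36 of the 49 lower genes, 13 of the 19 higher genes and 8422 of the 10877 tested genes. The cyclic AMP response element TGACGTCA, bound by CREB, was found on either strand in 0 lower and 0 higher genes, against 3.95% of all tested genes. Its short form TGACG was found in 22.2% and 23.1%, against 37.6%. The serum response element was found in 1 lower gene (Filip1, 2.78%) and 1 higher gene (Prkab2, 7.69%), against 1.52% of all. The MEF2 element was found in 3 lower genes (Elmo1, Filip1 and Hdac5, 8.33%) and 1 higher gene (Hrk, 7.69%), against 1.83%. These shares of the genes with a sequence rest on few genes, and their difference from all genes was not tested. A gene with several start windows counted once if any held the element. These matches describe letters in a window and not bound sites.

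For 3 of these genes a window that holds a MEF2 or serum response element is shown, in the direction of the gene and in lower case. Capitals stand at every match of a MEF2, serum response or TGACG element on either strand. The windows of Elmo1 and Prkab2 with such an element, and the other windows of Filip1, are not shown. Hrk lies at chr5:118169514-118169813 on the plus strand, Hdac5 at chr11:102230123-102230422 on the minus strand and Filip1 at chr9:79977833-79978132 on the minus strand.
Hrk: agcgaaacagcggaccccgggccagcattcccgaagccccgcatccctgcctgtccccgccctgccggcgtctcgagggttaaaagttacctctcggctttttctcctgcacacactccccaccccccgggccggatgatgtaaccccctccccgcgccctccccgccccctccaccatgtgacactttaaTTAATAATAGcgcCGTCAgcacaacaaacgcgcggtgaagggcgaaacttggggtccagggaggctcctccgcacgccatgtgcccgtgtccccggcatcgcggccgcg
Hdac5: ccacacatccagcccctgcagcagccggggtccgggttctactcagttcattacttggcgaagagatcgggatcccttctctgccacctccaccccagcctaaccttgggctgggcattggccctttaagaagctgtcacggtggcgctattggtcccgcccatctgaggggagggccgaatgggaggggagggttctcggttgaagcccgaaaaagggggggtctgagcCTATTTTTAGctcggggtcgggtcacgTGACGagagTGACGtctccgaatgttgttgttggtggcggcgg
Filip1: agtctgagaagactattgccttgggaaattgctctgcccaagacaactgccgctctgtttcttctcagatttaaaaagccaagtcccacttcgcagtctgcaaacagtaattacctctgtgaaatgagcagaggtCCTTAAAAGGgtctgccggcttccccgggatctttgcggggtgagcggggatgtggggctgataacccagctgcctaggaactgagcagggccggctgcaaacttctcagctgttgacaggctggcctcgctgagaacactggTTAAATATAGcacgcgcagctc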

How the data were processed

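The 14 libraries of mouse cortical cultures were read from both ends over 100 bases, per the labels' protocols. The deposited values are log signals that the authors quantile-normalised, so that every library has the same median (2.19) and maximum (12.0). The log base is not given in the sources used here and was taken as 2. Raised to base 2 and multiplied by exon length, the library totals differ by up to 1.07 times, and with base e by up to 1.09 times, which does not settle the base. Folds and summed linear levels depend on it, adjusted p-values do not. GRCm38.p6 is the build in the submitters' processing notes; aligner, counter, annotation and strand setting were not given in the sources used here. Read depth is unknown, and whole reads could not be recovered.

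Columns were matched to samples by the name in each label. Dropping the lowest 40% of features by mean left 10877 genes, 0 of them with a missing value, and the 27 features with date-like names are given no name. With limma 3.58.1 (R 4.3.3), 1 mean per group was estimated from all libraries, with moderated variances that follow a trend in level. Tests were two-sided, with Benjamini-Hochberg adjustment over all genes of a comparison, for 4 comparisons. The series design calls the replicates biological but not whether they were separate cultures or animals, and a p-value here reflects only how far these libraries differ. No libraries held identical values.

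The comparison and the gene lists were chosen with earlier results of these data known. Called genes, 7 index genes, and the called and 2 most changed members of each list could be named, with values per library for the 12 lowest and 10 highest called genes whose groups do not overlap. Some genes that this rule names are not reported here. Other per-library values, and related genes set beside called ones, were chosen after the values were seen. The procedure was run on simulated data, independent normal values with known changes added. Those values held no differences shared by the genes of a library, so that run does not test for them. Positions come from the GENCODE and RefSeq annotations of the same build. Tm6sf1, Hip1r, Tmem200a, Stac and Grm2 share 20.6%, 12.46%, 11.95%, 11.31% and 9.6% of their exon length with a gene on the other strand. As for Has3 and Smyd2, reads there cannot be assigned without strand.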

Additional observations from a re-analysis of the deposited data

How the results depend on the processing

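With single DMSO libraries left out, or 3 against 2 libraries fitted alone, few genes pass; causes were not tested. For NMP peptides plus APV against DMSO (68 genes) the count was 30 with the lowest 60% dropped, 5 (3 higher, 2 lower) with only the compared groups, 16 without the 4 libraries with the highest Gfap (chosen after seeing the data; 9 of the 68 among them), and 7 to 51 with 1 library left out. No filter (71), median centring (70), no variance trend (74), array weights (93) and missing values set to the minimum (59) kept it within 1.5 times. Against NMP peptides (156) it was 97 with 60% dropped, 615 with array weights, 91 without the high-Gfap libraries and 57 to 101 with 1 library left out. Against PK-cleaved NMP peptides (151) these were 80, 571, 57 and 53 to 127, with 55 for only the compared groups. Bicuculline against PK-cleaved NMP peptides (58) gave 88 with array weights and 44 to 68 with 1 library left out. Some uncalled genes changed sign against DMSO. Without DMSO replicate 2, and without the high-Gfap libraries, Arc had -0.152, Nr4a1 -0.0814, Gfap 0.0376, Gpr17 0.0940, Trib3 0.0541 and Dcn 0.296. Dcn had 0.00463 with median centring, 0.0238 with the replicate block and 0.0295 without NMP peptides plus APV replicate 3. Stard4 had 0.245 without DMSO replicate 3. With 1 library left out they ranged from -0.152 to 0.741 (Arc), -0.0814 to 0.917 (Nr4a1), -1.42 to 0.0376 (Gfap), -1.52 to 0.0940 (Gpr17), -1.63 to 0.0541 (Trib3), -0.357 to 0.296 (Dcn) and -0.732 to 0.245 (Stard4).

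Replicate numbers were not taken to pair the libraries: same-numbered deviations from the group means correlated across genes at 0.305 and 0.349 for NMP peptides plus APV and DMSO, which have only 2 pairs, and at -0.44 to 0.133 in the other comparisons. With the replicate block the counts were 32 (5 higher, 27 lower) against DMSO and 91 against PK-cleaved NMP peptides.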

Other observations

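The region around Cav1 on chromosome 6 was read gene by gene after its values were seen. Of 7 protein-coding genes within 500 kb, 6 were tested and all 6 lay below 0 in NMP peptides plus APV against DMSO, a count that includes the called genes Cav1 and Met. Over all genes 3948 of 10877 lay above 0. Besides Cav1 and Met, Tes, which encodes a focal adhesion protein, had 3.45 ± 0.05 (SD, n = 3) with NMP peptides plus APV and 4.03 ± 0.13 (SD, n = 2) with DMSO (limma log2 fold change -0.58 with an SE of 0.14, adjusted p = 0.0899). Capza2, an actin capping protein gene, had -0.16, St7 had -0.23 and Cav2 -0.05, none called.

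Features with no value were counted apart from the tested genes. There were 36 features with a value in all 3 NMP peptides plus APV libraries and in neither DMSO library, and 89 with a value in both DMSO libraries and in none of the APV libraries. In total 18128 features had a value in at least 1 library. The APV libraries held 15900, 15824 and 15971 values and the DMSO libraries 16231 and 16089. The part of this difference in the counts of 36 and 89 was not tested. Set against all 11 other libraries, 2 features had values in the 3 APV libraries alone and 1 had values in the 11 others alone.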
